A study of Mus musculus with 36 samples.

Results

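Wild-type (WT) mouse macrophages treated in culture with R837 for 7 h were compared with WT macrophages treated with it for 3 h. The comparison uses 6 of the 36 RNA-seq libraries of the series, namely the 3 libraries of each WT time without actinomycin D (ActD, a blocker of transcription), and was run across all genes. The cells were bone marrow-derived macrophages, grown from femur and tibia marrow of C57BL/6N mice in M-CSF, the growth factor that drives marrow progenitors to macrophages. The sources used here do not give the age or sex of the mice. R837 (imiquimod) is a small imidazoquinoline that activates Toll-like receptor 7. The groups compared are WT at 7 h of R837 and WT at 3 h of R837. Other groups, used where a test or description needs them, are N4bp1 knockout (KO) at 7 h and at 3 h of R837 and WT at 3 h of R837 with 0.5, 1, 2 or 4 h of ActD, with 3 libraries each. The labels give the 3 libraries of a group as cells of 3 individual mice. They carry no mouse numbers, so the 7 h and 3 h libraries may share mice and were treated as independent. No unstimulated macrophages were analysed here, and every level is that of a cell already exposed to R837.

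Toll-like receptor 7 sits in endosomes, binds guanosine-rich RNA fragments or imidazoquinolines, and signals through the adaptor MyD88 and the IRAK kinases to NF-kB, the MAP kinases and interferon regulatory factors. The first genes to be transcribed encode cytokines, chemokines, immediate early factors and the inhibitors that later limit the pathway. Genes of a later phase need newly made proteins or secreted interferon and interleukin 10 and include acute-phase, antimicrobial and metabolic genes.

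The WT libraries held 28754047 to 32494987 counts at 7 h and 25245359 to 29421346 counts at 3 h. Replicates correlated at 0.9986 or more at 7 h and at 0.9975 or more at 3 h (Pearson r of log2 CPM across genes, which are not independent), and no pair was identical. The 3 h libraries were the more variable, with a median SD over mean of 5.83% at 7 h and 9.20% at 3 h. The chi-square of paired counts per degree of freedom was 2.18 to 2.90 at 7 h. At 3 h it was 14.06 and 10.87 for the pairs with replicate 3 and 5.96 for the other pair. Against the 7 h libraries, r was 0.9761 to 0.9769 for 3 h replicate 1, 0.9781 to 0.9789 for replicate 2 and 0.9787 to 0.9793 for replicate 3. The source of this order was not tested. The cells carried macrophage markers at both times: 15 of 15 were above 1 CPM on average, and their summed level ranged from 28120 to 28440 CPM at 7 h and from 24110 to 28060 CPM at 3 h. Markers of other cells were low. The neutrophil list summed to 605 to 625 CPM at 7 h and 653 to 751 CPM at 3 h, mostly from S100a8, S100a9 and Ngp, while Ly6g was below 0.5 CPM in each of the 6 libraries. The summed range was 26.6 to 28.5 CPM at 7 h and 32.8 to 34.0 CPM at 3 h for dendritic cells. For B and plasma cells it was 68.2 to 79.6 CPM at 7 h and 99.1 to 109.9 CPM at 3 h. For T and NK cells it was 20.1 to 23.9 CPM at 7 h and 13.8 to 17.5 CPM at 3 h, and for mast cells 6.69 to 7.39 CPM at 7 h and 10.2 to 11.4 CPM at 3 h. For fibroblasts it was 33.3 to 37.1 CPM at 7 h and 33.3 to 34.9 CPM at 3 h, and for osteoclasts 180.2 to 185.3 CPM at 7 h and 125.5 to 133.1 CPM at 3 h. Of the osteoclast members tested 2 rose and 2 fell, with Mmp9 at 70.2 CPM at 7 h against 21.8 at 3 h. Of the T and NK members 1 rose, Cd8a (14.1 CPM at 7 h against 4.32 at 3 h), and 1 fell, Cd4 (5.26 against 7.96). Erythroid genes did not exceed 1.06 CPM in sum in any library, and the mast cell protease genes Mcpt4, Tpsab1, Tpsb2 and Cma1 were at 0. In bulk RNA, fewer cells of a type and less RNA per cell cannot be told apart, and the part of these markers in the results below was not tested.

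Expression is given in CPM, a gene's counts scaled to the size of its library with TMM normalization, per library or as the mean ± SD of 3 libraries, and changes as the log2 fold change of 7 h minus 3 h ± SE. A gene is said to have risen or fallen only where its edgeR quasi-likelihood test, adjusted over all genes tested, passed 0.05. CPM is a share of the library, with no spike-in, so a fall in CPM is a fall relative to the other transcripts.

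Most of the genes tested differed between 7 h and 3 h. Of 13748 genes tested, 7973 (58%) passed, 3750 of them higher at 7 h (27.3%) and 4223 lower (30.7%). A change of at least 2-fold was seen for 942 higher genes (6.85%) and 1547 lower ones (11.3%), at least 4-fold for 212 and 409, and at least 16-fold for 27 and 30. The median gene changed by -0.03 on the log2 scale, with -1.62 at the 5th and 1.22 at the 95th percentile. The 3 libraries of one time lay entirely apart from the 3 of the other for 9051 genes (65.8%). The split of calls depended on the scaling: 47.0% of them were higher at 7 h with TMM, and 56.6% (4283 higher and 3280 lower) when ribosomal protein genes served as the stable reference, which moved the median gene by 0.11. Protein-coding genes made up 3428 of the higher and 3884 of the lower calls, of 11662 tested. Long intergenic RNA genes gave 50 higher and 62 lower of 203 tested.

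**Figure D1:**
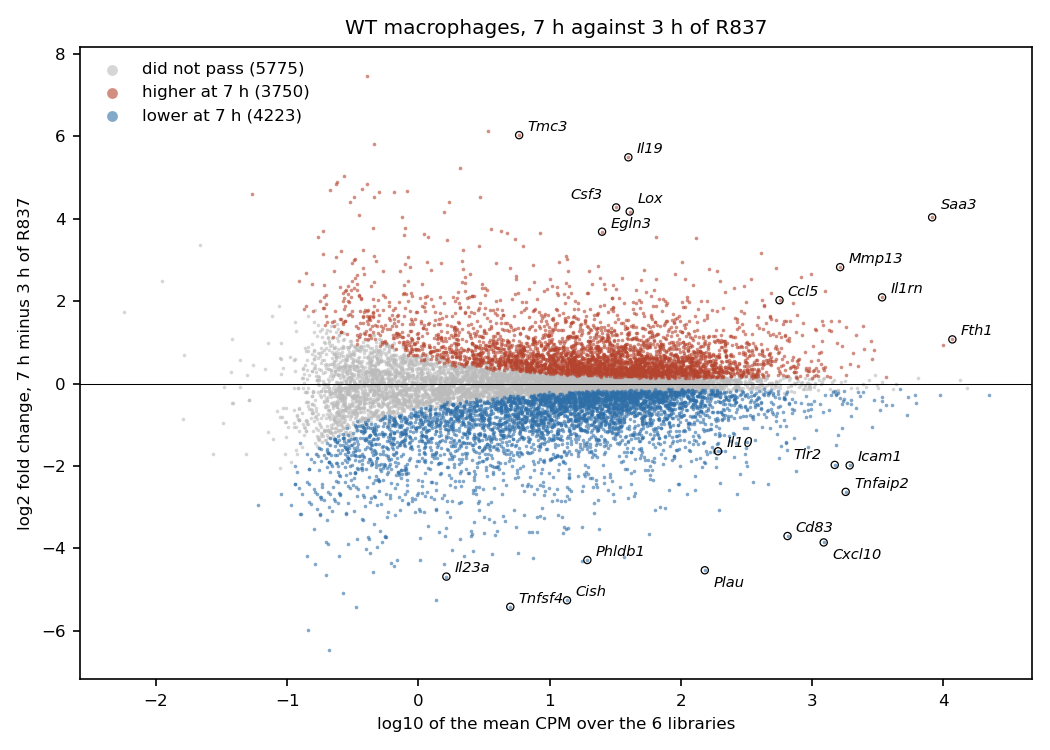
Log2 fold change of 7 h minus 3 h of R837 in WT macrophages (y axis) against log10 of the mean CPM over the 6 libraries (x axis), 1 point per gene tested; red genes were higher at 7 h (3750), blue lower (4223) and grey did not pass (5775), and circled genes are described in the text. Falls reach to highly expressed genes such as Cxcl10 and Tnfaip2, and Saa3 stands apart among the most abundant transcripts.

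Named genes were ranked by fold change, with predicted genes and pseudogenes left out and a mean of at least 5 CPM required. The ranking of rises and of falls also required the libraries of the 2 times to lie fully apart. A lack of overlap in these genes was thus set by the choice. The 15 largest rises were of Tmc3, Il19, Csf3, Lox, Saa3, Egln3, Marco, Gys1, Cp, Spred3, Prokr1, Slc28a2, Plpp1, Arid3a and Mnt. Saa3, which encodes the acute-phase protein serum amyloid A3, stood at 14480, 16150 and 16010 CPM at 7 h, against 676.5, 903 and 1264 CPM at 3 h. Its 3 h libraries differed among themselves by nearly 2-fold, and all lay far below the 7 h libraries (log2 fold change 4.04 ± 0.25, edgeR adjusted p = 1.28e-13). Per kilobase of the deposited exonic width, which need not be the length of the transcript, it ranked 4 among genes tested at 7 h and 159 at 3 h. Il19, encoding a cytokine of the interleukin 10 family, was at 73.7, 79.1 and 81.4 CPM at 7 h, against 1.25, 1.52 and 2.35 CPM at 3 h (log2 fold change 5.49 ± 0.14, edgeR adjusted p = 2.55e-30). Lox, encoding the collagen cross-linking enzyme lysyl oxidase, was at 75.7, 79.3 and 77.1 CPM at 7 h, against 4.76, 3.92 and 4.18 CPM at 3 h. Its log2 fold change was 4.18 ± 0.12. Tmc3, of a family of channel-like membrane proteins, was barely detected at 3 h (11.6 ± 1.39 CPM at 7 h and 0.172 ± 0.0268 CPM at 3 h, log2 fold change 6.03 ± 0.26). Over 63.7% of its exonic width Tmc3 is overlapped by Gm16638 on the opposite strand, and with the strand setting of the counting not given in the sources used here, reads of these genes cannot be told apart.

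Among the other genes of that ranking, Gys1, the glycogen synthase of most tissues other than liver, was at 116, 125 and 118 CPM at 7 h, against 9.78, 10.7 and 9.89 CPM at 3 h (log2 fold change 3.56 ± 0.14). Slc28a2, encoding a sodium-coupled nucleoside transporter, reached 734 ± 35.9 CPM at 7 h and 81.1 ± 4.87 CPM at 3 h (log2 fold change 3.18 ± 0.07). Cp, encoding the copper-carrying ferroxidase ceruloplasmin, was at 241 ± 7.19 CPM at 7 h and 20.7 ± 4.43 CPM at 3 h (log2 fold change 3.54 ± 0.13). Mnt, which encodes a Max partner that opposes Myc, rose by 2.96 on the log2 scale, and Spred3, which encodes a Ras pathway inhibitor, by 3.51. The DNA-binding factor gene Arid3a rose by 3.03, the prokineticin receptor gene Prokr1 by 3.35 and the lipid phosphatase gene Plpp1 by 3.10. Plpp1 shares 25.8% of its width with Mtrex on the opposite strand.

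The 15 largest falls were of Tnfsf4, Cish, Plau, Eps8, Phldb1, Plat, Bcor, Abcg3, Cxcl10, Cd83, Arhgap18, Rnf150, Cdca7l, Cd28 and Sphk1. Plau, the urokinase plasminogen activator, was at 12.6, 13.8 and 11.4 CPM at 7 h, against 323, 292 and 262 CPM at 3 h (log2 fold change -4.53 ± 0.09, edgeR adjusted p = 8.49e-34). The groups lay more than 10-fold apart. Bcor, encoding the BCL6 corepressor, was at 4.11, 3.85 and 3.48 CPM at 7 h, against 67.4, 80.1 and 63.8 CPM at 3 h (log2 fold change -4.20 ± 0.13). Eps8, an actin-capping protein, was at 1.78, 1.65 and 1.67 CPM at 7 h, against 33.8, 35.9 and 31.7 CPM at 3 h (log2 fold change -4.31 ± 0.12). Arhgap18, encoding a GTPase-activating protein, was at 8.42 ± 0.631 CPM at 7 h and 105 ± 0.984 CPM at 3 h (log2 fold change -3.64 ± 0.09). Lower at 7 h were also the pleckstrin-homology protein gene Phldb1 (-4.28), the ABC transporter gene Abcg3 (-4.12), the RING finger gene Rnf150 (-3.62), Cdca7l (-3.61), which shares 21.7% of its width with Dnah11 on the opposite strand, the costimulatory receptor gene Cd28 (-3.61) and the sphingosine kinase gene Sphk1 (-3.60).

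**Figure D2:**
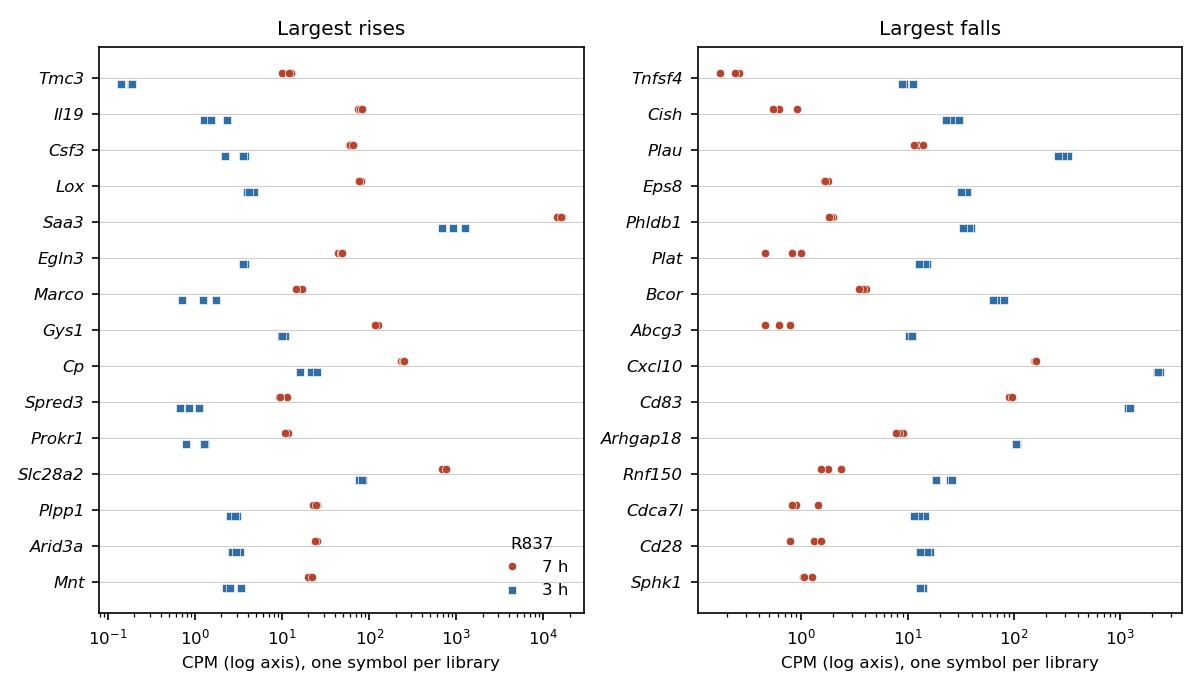
CPM on a log axis in each library (x axis) for the 15 largest rises (left) and the 15 largest falls (right) in WT macrophages, red circles for 7 h and blue squares for 3 h of R837, 1 symbol per library. In all 30 genes the 3 libraries of one time lie apart from the 3 of the other, which the ranking required, and Saa3 and Cxcl10 are among the most abundant.

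Measured in CPM rather than fold, the largest gains of genes that changed at least 2-fold were of Saa3, Fth1, Il1rn, Mmp13, Serp1, Eif4g2, Cybb, Wfdc17, Ctsc and Msr1. Fth1, the ferritin heavy chain that stores iron, was at 15710, 16060 and 16020 CPM at 7 h, against 7659, 7418 and 7662 CPM at 3 h and was the highest gene per kilobase at 7 h (log2 fold change 1.07 ± 0.07). Wfdc17, encoding a small whey acidic protein, was at 2095 ± 83.3 CPM at 7 h and 438.5 ± 85.6 CPM at 3 h (log2 fold change 2.26 ± 0.16). Cybb, the catalytic subunit of the phagocyte NADPH oxidase, was at 3032 ± 48.5 CPM at 7 h and 1335 ± 77.4 CPM at 3 h (log2 fold change 1.18 ± 0.07). Serp1, which stabilizes membrane proteins in the endoplasmic reticulum, was at 3584 ± 44.4 CPM at 7 h and 1354 ± 115 CPM at 3 h, and the translation factor gene Eif4g2 at 3808 ± 69.5 CPM at 7 h and 1867 ± 22.6 CPM at 3 h. The largest losses were of Tnfaip2, Icam1, Cxcl10, Ccl4, Tlr2, Sqstm1, Lipa, Gpx1, Cd83 and Rsad2. Tnfaip2, a TNF-induced exocyst-related protein, was at 505, 501 and 504 CPM at 7 h, against 3195, 3133 and 3012 CPM at 3 h, with narrow spread and no overlap (log2 fold change -2.63 ± 0.06). Lipa, the lysosomal acid lipase, was at 934 ± 25.5 CPM at 7 h and 2231 ± 204 CPM at 3 h (log2 fold change -1.26 ± 0.06). Gpx1, a glutathione peroxidase, was at 1089 ± 31.2 CPM at 7 h and 2306 ± 119 CPM at 3 h (log2 fold change -1.08 ± 0.08). Sqstm1, encoding the autophagy receptor p62, was at 801 ± 24.7 CPM at 7 h and 2258 ± 72.2 CPM at 3 h (log2 fold change -1.50 ± 0.06). In this gene 20.5% of its width lies over Mrnip on the opposite strand.

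For the gene lists that follow, 27.3% of all genes tested rose and 30.7% fell, with a median of -0.03, and each list is set beside those values with no test of its own. In the receptor pathway itself, 9 of 22 members tested rose and 7 fell (median -0.001). Tlr7 was at 212, 203 and 213 CPM at 7 h, against 179.7, 182 and 158 CPM at 3 h, a small rise (log2 fold change 0.27 ± 0.09, edgeR adjusted p = 0.0122) that did not pass without replicate 3 of 3 h (0.21, edgeR adjusted p = 0.0862). The member that changed most was Irak3, encoding the kinase-dead IRAK that holds back MyD88 signalling, at 294, 286 and 285 CPM at 7 h, against 39.5, 44.3 and 42.7 CPM at 3 h (log2 fold change 2.77 ± 0.07). It was low in each 3 h library and high in each 7 h library. Ikbkg, the regulatory NEMO subunit of the IKK complex, rose by 0.81, Pik3ap1, the adaptor BCAP, by 0.81, and Tab1, a partner of the kinase TAK1, by 0.70. Irf7 (840.2 CPM at 7 h against 562 at 3 h) rose and Irf5 (144.5 CPM at 7 h against 232 at 3 h) fell, both transcription factors downstream of the receptor. The adaptor gene Myd88 (329.8 ± 5.996 CPM at 7 h and 328 ± 0.894 CPM at 3 h) and the chaperone gene Unc93b1 (413 ± 8.64 CPM at 7 h and 417 ± 36.6 CPM at 3 h) did not pass. With ribosomal protein genes as the reference, 3 rather than 7 members of this list fell.

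Among other Toll-like receptors and their partners 4 of 11 rose and 4 fell (median -0.09). Tlr2, the receptor for bacterial lipopeptides, was at 619, 581 and 615 CPM at 7 h, against 2520, 2418 and 2197 CPM at 3 h (log2 fold change -1.98 ± 0.07). Its partner gene Tlr1, in contrast, rose (296 CPM at 7 h against 186 at 3 h, 0.67). Cd180, encoding a TLR4-like surface receptor, fell (81.8 CPM at 7 h against 217 at 3 h, -1.41), as did Tlr9, the endosomal DNA receptor gene (3.95 CPM at 7 h against 8.43 at 3 h, -1.09).

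NF-kB genes and the genes of its negative feedback were mostly lower at 7 h. Of the 5 subunit genes 4 fell and none rose (median -0.79): Rel at 45.7, 45.2 and 44.9 CPM at 7 h, against 136, 145 and 133 CPM at 3 h (log2 fold change -1.61 ± 0.08), Nfkb2 (-0.84), Nfkb1 (-0.79) and Relb (-0.72). Rela, which encodes the p65 subunit, was at 88.3 ± 1.38 CPM at 7 h and 99.1 ± 11.5 CPM at 3 h and did not pass (log2 fold change -0.17 ± 0.11). Of the 16 inhibitor and feedback genes 13 fell and 1 rose (median -0.53). Nfkbie, encoding the inhibitor IkB epsilon, was at 91.9, 88.3 and 87.9 CPM at 7 h, against 276.5, 257 and 240.2 CPM at 3 h (log2 fold change -1.53 ± 0.07, edgeR adjusted p = 4.4e-23), well separated. Birc2, a ubiquitin ligase gene, fell by 1.45 on the log2 scale (35.98 CPM at 7 h against 98.1 at 3 h). Nfkbiz, encoding the atypical regulator IkB zeta, fell by 1.33 (418 CPM at 7 h against 1049 at 3 h), and the deubiquitinase gene Otud7b by 1.26 (5.28 CPM at 7 h against 12.6 at 3 h). Nfkbia, encoding IkB alpha, was nearer to its 3 h level (886 ± 14.2 CPM at 7 h and 1181 ± 25.7 CPM at 3 h, log2 fold change -0.41 ± 0.06). The member that rose was Tnip1, an A20-binding inhibitor (438 CPM at 7 h against 344 at 3 h).

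The promoter of Nfkbie is shown because it carries an NF-kB site close to the start. A match to the NF-kB consensus on either strand was present in the 300-base promoter windows (250 bases before to 50 after the start) of 7 of 14 inhibitor genes with a window (50%), against 8.18% of all 27025 windows and 10.2% of those of the genes tested. The share was 11.5% among genes that rose at least 2-fold and 11.2% among those that fell at least 2-fold. The 250 bases upstream of Nfkbie on the plus strand, chr17:45555450-45555699 in GRCm38.p6 from RefSeq, have their match in capitals, starting 106 bases before the start site. A match is a description of the letters, not a measured site.
Nfkbie: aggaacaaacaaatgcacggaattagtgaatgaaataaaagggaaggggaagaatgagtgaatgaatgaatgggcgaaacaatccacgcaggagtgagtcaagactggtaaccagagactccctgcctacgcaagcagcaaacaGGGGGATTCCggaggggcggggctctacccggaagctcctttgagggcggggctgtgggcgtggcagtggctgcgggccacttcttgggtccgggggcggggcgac

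Other early regulators moved in both directions. Of 10 MAP kinase phosphatase genes 5 fell and 2 rose (median -0.28; 3 fell with the ribosomal reference). Dusp1, the phosphatase of p38 and JNK, was at 337, 321 and 316.5 CPM at 7 h, against 792, 752 and 720.3 CPM at 3 h (log2 fold change -1.22 ± 0.08). Dusp14 was nearly gone at 7 h (0.204 ± 0.1603 CPM at 7 h and 3.42 ± 0.606 CPM at 3 h, log2 fold change -4.04 ± 0.31). The ERK phosphatase genes Dusp6 (19.5 CPM at 7 h against 6.87 at 3 h) and Dusp7 (35.5 CPM at 7 h against 12.6 at 3 h) rose instead. Of 21 immediate early factors 8 fell and 3 rose (median -0.22). The nuclear receptor gene Nr4a3 fell (0.697 CPM at 7 h against 5.09 at 3 h, -2.86), as did Junb (273 CPM at 7 h against 567 at 3 h, -1.05) and Egr2 (3.11 CPM at 7 h against 6.42 at 3 h, -1.05). Fosl1, encoding the AP-1 subunit FRA1, rose at a low level (1.04 CPM at 7 h against 0.282 at 3 h, 1.84).

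Inhibitors of cytokine receptor signalling fell in 6 of 8 cases and rose in 1 (median -0.78). Cish, an inhibitor of STAT5-activating receptors, was at 0.615, 0.541 and 0.921 CPM at 7 h, against 26.2, 30.4 and 22.9 CPM at 3 h (log2 fold change -5.26 ± 0.22). Socs1, which restrains interferon signalling, was at 5.6, 7.36 and 6.48 CPM at 7 h, against 35.9, 28.9 and 28.05 CPM at 3 h (log2 fold change -2.25 ± 0.16). In both genes each 3 h library exceeded each 7 h library by severalfold. Cish shares 13.1% of its width with Gm17041 and 7.16% with Gm17040, which lie on the opposite strand. Socs7 fell too (12.1 CPM at 7 h against 39.6 at 3 h, -1.72), and Socs3, which acts on the interleukin 6 receptor, stayed abundant (955 ± 18.9 CPM at 7 h and 1338 ± 84.9 CPM at 3 h, -0.49). Socs5 was the member that rose (0.64).

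Among 12 regulators of mRNA decay 6 fell and 4 rose (median -0.08; 3 fell with the ribosomal reference). Zfp36, encoding tristetraprolin, which destabilizes transcripts with AU-rich elements, was at 421, 427 and 405 CPM at 7 h, against 846, 920.5 and 798 CPM at 3 h (log2 fold change -1.03 ± 0.09). Rc3h1, encoding roquin, fell to 35.03 CPM at 7 h against 65.9 at 3 h (-0.91). Zfp36l2, a relative of Zfp36, rose (12.2 CPM at 7 h against 4.83 at 3 h, 1.34), and Zc3h12d rose by 0.66. Zc3h12a, the gene of the endonuclease Regnase-1, was at 160 ± 4.03 CPM at 7 h and 159 ± 10.8 CPM at 3 h and did not pass (log2 fold change 0.01 ± 0.08). N4bp1, encoding an RNase that limits cytokine transcripts and the target of the knockout in this series, was at 171, 182.5 and 169.8 CPM at 7 h, against 125, 147 and 128 CPM at 3 h in WT, a modest rise without overlap (log2 fold change 0.39 ± 0.07).

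Of 9 CXC chemokine genes 6 fell and 2 rose (median -0.72). Cxcl10, the interferon-inducible attractant of activated T cells, was at 156, 159 and 162 CPM at 7 h, against 2246, 2370 and 2281 CPM at 3 h (log2 fold change -3.86 ± 0.08, edgeR adjusted p = 5.16e-33). Cxcl11, which binds the same receptor, fell alongside (2.29 CPM at 7 h against 20.95 at 3 h, -3.20). Cxcl9, the third ligand of that receptor, rose (32.7 ± 1.29 CPM at 7 h and 11.1 ± 2.41 CPM at 3 h, log2 fold change 1.56 ± 0.17). Cxcl1, encoding a neutrophil attractant, was at 152, 162 and 169 CPM at 7 h, against 285, 269 and 332 CPM at 3 h (log2 fold change -0.87 ± 0.10). Cxcl2 was at 323.5 ± 11.6 CPM at 7 h and 489.9 ± 55.6 CPM at 3 h (log2 fold change -0.60 ± 0.09).

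Of 12 CC chemokine genes 6 fell and 3 rose (median -0.60). Ccl5, encoding the T cell attractant RANTES, was at 898, 891 and 938 CPM at 7 h, against 163, 228 and 279 CPM at 3 h (log2 fold change 2.02 ± 0.15). Ccl9, a chemokine that attracts through CCR1, rose (13080 ± 112 CPM at 7 h and 6832 ± 583.5 CPM at 3 h, log2 fold change 0.94 ± 0.10). Ccl4, encoding MIP-1 beta, was at 1883, 1894 and 1869 CPM at 7 h, against 3735, 3853 and 4092 CPM at 3 h (log2 fold change -1.05 ± 0.07). Ccl22 fell at a lower level (8.67 CPM at 7 h against 23.4 at 3 h, -1.43). Per kilobase of exonic width, Ccl9 stood at 4353 CPM and Ccl4 at 2851 CPM at 7 h, against 2273 and 5899 CPM at 3 h. The change of order rests on the division by width: in plain CPM Ccl9 stood above Ccl4 at both times. The libraries of the 2 times did not overlap in any of these genes, which were named for their large changes. Over all genes tested the libraries lay fully apart for 65.8%.

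Interleukin 1 family genes rose in 6 of 9 cases and fell in 2 (median 0.31). Il1rn, encoding the interleukin 1 receptor antagonist, was at 5608, 5418 and 5620 CPM at 7 h, against 1228, 1371 and 1302 CPM at 3 h (log2 fold change 2.09 ± 0.08). Il1b, encoding the agonist, was at 2166, 2235 and 2225 CPM at 7 h, against 1057, 1158 and 1329 CPM at 3 h (log2 fold change 0.90 ± 0.08). Per kilobase of exonic width, the antagonist stood above the agonist at 7 h (2051 and 1629 CPM per kilobase). It stood below the agonist at 3 h (480.5 and 871 CPM per kilobase). This order rests on the division by width: in plain mean CPM Il1rn was above Il1b at both times (1300 and 1182 CPM at 3 h). Il1f6, the gene of interleukin 36 alpha, rose, being barely detected at 3 h (8.84 ± 1.08 CPM at 7 h and 0.704 ± 0.0942 CPM at 3 h, log2 fold change 3.65 ± 0.24). The genes of the decoy receptor Il1r2 (0.841 CPM at 7 h against 2.02 at 3 h) and of the interleukin 33 receptor Il1rl1 (0.602 CPM at 7 h against 2.97 at 3 h) fell.

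In the interleukin 10 family and its receptor pathway 6 of 9 fell and 2 rose (median -0.64). Il10, the anti-inflammatory cytokine of macrophages, was at 97.5, 90.03 and 92.4 CPM at 7 h, against 283, 292 and 299 CPM at 3 h (log2 fold change -1.64 ± 0.10). Of its targets in the list, Etv3 was at 72.9 ± 2.37 CPM at 7 h and 468 ± 20.7 CPM at 3 h (log2 fold change -2.68 ± 0.07) and Nfil3 at 34.2 CPM at 7 h against 66.4 at 3 h (-0.96); both genes encode repressors and both fell. Il19 is the family member that rose most, and Stat3 rose slightly (202 CPM at 7 h against 143 at 3 h, 0.50).

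Interleukin 12 and 6 family genes fell in 4 of 8 cases and rose in 1 (median -0.70). Il23a, encoding the p19 subunit of interleukin 23, was at 0.1202 ± 0.0833 CPM at 7 h and 3.15 ± 0.311 CPM at 3 h (log2 fold change -4.69 ± 0.40). Il27 was at 39.2 ± 2.31 CPM at 7 h and 158 ± 11.2 CPM at 3 h (log2 fold change -2.01 ± 0.08), and Lif at 0.174 CPM at 7 h against 0.692 at 3 h (-1.98). Ebi3, the partner subunit of interleukin 27, rose (248 CPM at 7 h against 140.2 at 3 h, 0.82), so that the subunit genes of this cytokine moved in opposite directions. Il12b, the subunit shared by interleukins 12 and 23, was at 204.5, 210.2 and 233 CPM at 7 h, against 182, 239 and 313 CPM at 3 h. The 3 h libraries spanned the 7 h libraries and the gene did not pass (log2 fold change -0.18 ± 0.16, edgeR adjusted p = 0.33). Without replicate 1 of 3 h it did (-0.36, edgeR adjusted p = 0.0384), and without replicate 3 of 3 h its change was 0.03. Il6 was at 27.2, 28.4 and 29.1 CPM at 7 h, against 32.3, 37.5 and 41.6 CPM at 3 h, a small fall without overlap (log2 fold change -0.40 ± 0.12, edgeR adjusted p = 0.00325).

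Colony-stimulating factors and their receptors rose in 5 of 8 cases and fell in 1 (median 0.27; 3 rose without replicate 3 of 3 h). Csf3, encoding the granulocyte factor G-CSF, was at 58.04, 60.2 and 65.5 CPM at 7 h, against 3.73, 2.19 and 3.55 CPM at 3 h (log2 fold change 4.28 ± 0.13). The gene of its receptor, Csf3r, rose as well (77.2 ± 4.36 CPM at 7 h and 19.1 ± 2.62 CPM at 3 h, log2 fold change 2.02 ± 0.10). Csf2rb, the shared beta chain, rose by 1.27. Csf1, encoding M-CSF itself, was at 3.84 ± 0.436 CPM at 7 h and 44.2 ± 3.695 CPM at 3 h (log2 fold change -3.53 ± 0.13). No member of the TNF superfamily ligands rose, and 10 of 13 fell (median -1.49), 9 of them at least 2-fold. Tnfsf4, encoding OX40 ligand, was at 0.259, 0.2404 and 0.171 CPM at 7 h, against 11.4, 9.28 and 8.81 CPM at 3 h (log2 fold change -5.42 ± 0.24). Tnfsf10, encoding the death ligand TRAIL, was at 14.97 ± 1.37 CPM at 7 h and 63.04 ± 4.35 CPM at 3 h (log2 fold change -2.08 ± 0.16), and the costimulatory ligand gene Tnfsf14 at 0.747 CPM at 7 h against 4.49 at 3 h (-2.57). Tnf itself was at 583, 550.5 and 584 CPM at 7 h, against 894, 906.5 and 886 CPM at 3 h, the smallest fall among the 10 (log2 fold change -0.65 ± 0.06).

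**Figure D3:**
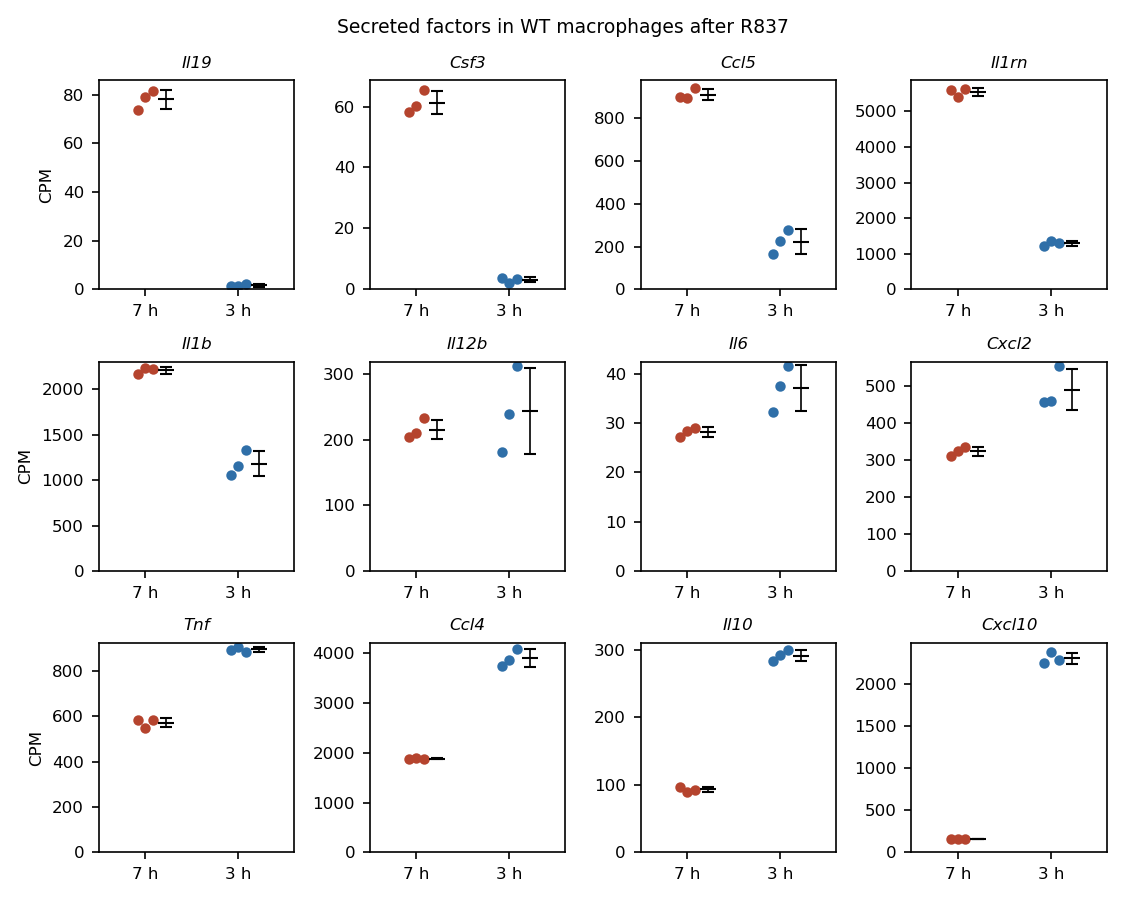
CPM of 12 secreted factor genes in each WT library at 7 h (red) and 3 h (blue) of R837, on linear axes from 0; points are libraries, and the bar and whiskers to their right are the mean and SD of 3 libraries. Il19, Csf3, Ccl5, Il1rn and Il1b are higher at 7 h, Il6, Cxcl2, Tnf, Ccl4, Il10 and Cxcl10 are lower, and the points of Il12b overlap.

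Of 36 interferon-stimulated genes 18 rose, 11 fell and 7 did not pass (median 0.24). Over all genes tested 27.3% rose and 30.7% fell, so the falls in this list were near the share of all genes. Rsad2, encoding the antiviral enzyme viperin, was at 281, 289 and 286.5 CPM at 7 h, against 1224, 1272 and 1211 CPM at 3 h (log2 fold change -2.11 ± 0.14). Cmpk2, its genomic neighbour, was at 317 ± 9.78 CPM at 7 h and 976 ± 23.1 CPM at 3 h (log2 fold change -1.62 ± 0.12). Ifit1, which binds viral RNA, fell (339 CPM at 7 h against 928 at 3 h, -1.45), as did the transcription factor gene Irf1 (134.5 CPM at 7 h against 351 at 3 h, -1.38). Gbp2, a guanylate-binding protein of cell-autonomous immunity, was at 1170, 1101 and 1155 CPM at 7 h, against 214, 299 and 365 CPM at 3 h (log2 fold change 1.96 ± 0.16). It rose together with Gbp3 (326 CPM at 7 h against 91.7 at 3 h, 1.83), the exonuclease gene Isg20 (76.4 CPM at 7 h against 21.3 at 3 h, 1.84) and the antiviral GTPase gene Mx1 (224 CPM at 7 h against 77 at 3 h, 1.54). Isg15, the ubiquitin-like modifier, rose less (1160 ± 25.2 CPM at 7 h and 517 ± 97.1 CPM at 3 h, log2 fold change 1.17 ± 0.14). Ifnb1, encoding interferon beta, fell at a low level (0.4595 ± 0.109 CPM at 7 h and 0.883 ± 0.262 CPM at 3 h, -0.95).

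The upstream regions of Rsad2, of the interferon-stimulated list, and of Cxcl10, which is counted with the CXC chemokines and not in that list, are shown because both genes fell and each region carries a match to the interferon-stimulated response element, searched as GAAA, any 2 bases and GAAA on either strand. This pattern was found in 16 of 28 genes of the interferon-stimulated list with a window (57.1%). It was in 3.49% of all windows and 3.38% of those of genes tested. Its share was 5.47% among genes that rose at least 2-fold and 3.91% among those that fell. Both regions are from RefSeq (GRCm38.p6), minus strand, that of Cxcl10 at chr5:92348890-92349139 with the match starting 213 bases before the start site and that of Rsad2 at chr12:26456453-26456702 with the match at 120 bases, in capitals.
Cxcl10: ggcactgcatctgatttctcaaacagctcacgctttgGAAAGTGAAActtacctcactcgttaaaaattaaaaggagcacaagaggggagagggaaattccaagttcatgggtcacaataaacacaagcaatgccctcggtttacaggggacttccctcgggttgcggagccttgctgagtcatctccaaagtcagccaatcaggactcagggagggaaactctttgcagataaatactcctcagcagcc
Rsad2: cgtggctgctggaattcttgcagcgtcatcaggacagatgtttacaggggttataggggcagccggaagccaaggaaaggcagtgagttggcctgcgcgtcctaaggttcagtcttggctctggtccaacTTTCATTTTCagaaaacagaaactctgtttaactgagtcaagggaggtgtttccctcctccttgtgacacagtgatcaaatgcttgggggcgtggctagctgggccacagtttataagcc

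Of 19 antimicrobial and acute-phase genes 12 rose, 9 of them at least 2-fold, and 4 fell (median 0.49). Besides Saa3 and Cp, Serpinb2, encoding plasminogen activator inhibitor 2, was at 180.3 ± 14.99 CPM at 7 h and 23.2 ± 2.73 CPM at 3 h (log2 fold change 2.96 ± 0.13). Hp, encoding the haemoglobin scavenger haptoglobin, was at 582 ± 26.1 CPM at 7 h and 99.3 ± 14.2 CPM at 3 h (log2 fold change 2.55 ± 0.10). Lcn2, encoding the siderophore-binding lipocalin, was at 485, 506 and 523 CPM at 7 h, against 88.2, 107 and 95.98 CPM at 3 h (log2 fold change 2.38 ± 0.07). The complement factor B gene Cfb rose (11.6 CPM at 7 h against 2.36 at 3 h, 2.29), while C1qa fell (2546 CPM at 7 h against 3361 at 3 h, -0.40). Granule genes that also mark neutrophils moved both ways. Camp was at 17.5 ± 0.989 CPM at 7 h and 29.9 ± 3.01 CPM at 3 h (-0.78), and S100a9 at 223 ± 3.48 CPM at 7 h and 304 ± 33.1 CPM at 3 h (-0.45). S100a8 was higher (292 ± 11.1 CPM at 7 h and 208 ± 25.9 CPM at 3 h, 0.49). Of the 14 neutrophil markers 7 fell, 5 of them at least 2-fold, and 3 rose; among them Ltf was at 10.2 CPM at 7 h against 27.96 at 3 h and Mpo at 2.79 CPM at 7 h against 8.03 at 3 h.

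Enzymes of nitric oxide, arginine and itaconate metabolism rose in 8 of 11 cases and fell in 2 (median 1.18; 1 fell with the ribosomal reference). Nos2, the inducible nitric oxide synthase, was at 753, 792 and 817.5 CPM at 7 h, against 232, 306 and 271 CPM at 3 h (log2 fold change 1.55 ± 0.11). Its 3 h libraries varied more than the 7 h libraries, without overlap. Arg1, which competes for the same substrate, rose at a low level (50.8 ± 3.65 CPM at 7 h and 9.73 ± 1.45 CPM at 3 h, log2 fold change 2.38 ± 0.13). The arginine transporter gene Slc7a2 rose (168 ± 2.65 CPM at 7 h and 46.5 ± 4.94 CPM at 3 h, log2 fold change 1.85 ± 0.08). Ass1, which regenerates arginine from citrulline, rose as well (25.8 ± 1.85 CPM at 7 h and 7.37 ± 0.981 CPM at 3 h, log2 fold change 1.80 ± 0.10). Acod1, the itaconate-forming enzyme, was at 2110, 1993 and 2056 CPM at 7 h, against 731, 744 and 691 CPM at 3 h (log2 fold change 1.51 ± 0.07). The ornithine decarboxylase gene Odc1 fell (22.9 CPM at 7 h against 47.8 at 3 h, -1.06).

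Prostaglandin genes rose in 5 of 13 cases and fell in 5 (median 0.08). Pla2g4a, the phospholipase that releases arachidonic acid, was at 329, 344 and 345 CPM at 7 h, against 51.02, 60.8 and 69.8 CPM at 3 h (log2 fold change 2.48 ± 0.09). Ptges, the terminal synthase, was at 893, 952.5 and 938.5 CPM at 7 h, against 129, 136 and 136.5 CPM at 3 h (log2 fold change 2.79 ± 0.06). Between them in the pathway, Ptgs2, encoding cyclooxygenase 2, was at 928 ± 34.1 CPM at 7 h and 845 ± 30.5 CPM at 3 h and did not pass (log2 fold change 0.14 ± 0.09). Ptgir, the prostacyclin receptor gene, rose (13.05 CPM at 7 h against 4.97 at 3 h, 1.40). The degrading enzyme gene Hpgd (0.6598 CPM at 7 h against 1.72 at 3 h, -1.38) and the thromboxane synthase gene Tbxas1 (75.7 CPM at 7 h against 149.7 at 3 h, -0.98) fell.

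Of 15 plasminogen activation and matrix protease genes 7 rose and 6 fell (median -0.03). Both plasminogen activator genes fell, Plau and Plat (0.751 ± 0.273 CPM at 7 h and 14.2 ± 1.26 CPM at 3 h, log2 fold change -4.24 ± 0.15). Adamts4, encoding an aggrecan-cleaving protease, was likewise lower (15.5 ± 0.747 CPM at 7 h and 123.5 ± 8.65 CPM at 3 h, log2 fold change -2.998 ± 0.09). Of the matrix metalloproteinase genes in the list all rose except Mmp12, which did not pass (879.8 ± 20.7 CPM at 7 h and 898 ± 45.5 CPM at 3 h). Mmp13, a collagenase, was at 2874, 2859 and 2889 CPM at 7 h, against 359, 403 and 453 CPM at 3 h (log2 fold change 2.83 ± 0.11). Mmp14, which is anchored in the membrane, was at 443 ± 5.13 CPM at 7 h and 129.6 ± 18.01 CPM at 3 h (log2 fold change 1.77 ± 0.08). Mmp9, a gelatinase, was at 70.2 ± 4.87 CPM at 7 h and 21.8 ± 0.612 CPM at 3 h (log2 fold change 1.68 ± 0.09).

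At the cell surface, 10 of 17 adhesion and costimulation genes fell and 6 rose (median -0.62). Icam1, the ligand of the leukocyte integrin LFA-1, was at 793, 768 and 782.5 CPM at 7 h, against 3124, 3206 and 2954 CPM at 3 h (log2 fold change -1.99 ± 0.06). Its width is shared to 20.2% with Gm47079 on the opposite strand. Cd83, a marker of activated antigen-presenting cells, was at 93.2, 89.1 and 96.9 CPM at 7 h, against 1197, 1190 and 1243 CPM at 3 h (log2 fold change -3.70 ± 0.09). The integrin gene Itgav fell as well (133.5 ± 0.656 CPM at 7 h and 497 ± 56.9 CPM at 3 h, log2 fold change -1.90 ± 0.10). Itgal, which encodes the alpha chain of LFA-1, was at 163, 163 and 161 CPM at 7 h, against 33.5, 45.8 and 43.5 CPM at 3 h (log2 fold change 1.98 ± 0.09), so that receptor and ligand genes moved in opposite directions. Cd86 was at 31.5 ± 1.41 CPM at 7 h and 31.7 ± 2.01 CPM at 3 h and did not pass.

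Class II antigen presentation genes fell in 8 of 11 cases and none rose (median -0.51). H2-Aa was at 75.1, 72.1 and 67.8 CPM at 7 h, against 123.5, 122 and 121 CPM at 3 h (log2 fold change -0.77 ± 0.06). H2-Eb1 was at 41.97 ± 1.98 CPM at 7 h and 71.6 ± 2.53 CPM at 3 h (log2 fold change -0.77 ± 0.06), and the peptide-loading gene H2-DMa at 11.3 CPM at 7 h against 20.5 at 3 h (-0.87). These genes are also expressed by dendritic cells and B cells, whose marker lists fell in 6 of 9 and 7 of 11 members. In the dendritic cell list 1 member rose and 2 did not pass, and in the B cell list none rose and 4 did not pass. Zbtb46, which marks dendritic cells, was at 0.288 CPM at 7 h against 1.32 at 3 h. Ccr7, the most abundant member of that list, was at 16.5, 15.2 and 17.1 CPM at 7 h, against 10.8, 10.9 and 10.4 CPM at 3 h. Cd79a, of the B cell receptor, was at 0.282 CPM at 7 h against 0.706 at 3 h. Zbtb46 and Cd79a were below 1 CPM at 7 h, and the part of such cells in the class II change was not tested.

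Phagocytic and scavenger receptors rose in 14 of 22 cases and fell in 6 (median 0.50). Fcgr2b, the inhibitory receptor for immunoglobulin G, was at 1405, 1398 and 1413 CPM at 7 h, against 198, 245 and 256 CPM at 3 h (log2 fold change 2.59 ± 0.07). Fcgr4, encoding an activating receptor, was at 878 ± 38.9 CPM at 7 h and 323 ± 31.1 CPM at 3 h (log2 fold change 1.44 ± 0.09). Fcgr1 stood at 1984 ± 82.8 CPM at 7 h and 824 ± 35.5 CPM at 3 h (log2 fold change 1.27 ± 0.07). Msr1, the class A scavenger receptor, was at 2362 ± 26.4 CPM at 7 h and 827 ± 121 CPM at 3 h (log2 fold change 1.51 ± 0.11). Marco, its relative, was at 15.7 ± 1.16 CPM at 7 h and 1.22 ± 0.519 CPM at 3 h (log2 fold change 3.66 ± 0.19). The 6 members that fell included Mertk (6.05 CPM at 7 h against 10.03 at 3 h, -0.73), a receptor in the uptake of dead cells, Trem2 (1055 CPM at 7 h against 1656 at 3 h, -0.65), and Mrc1 (305 CPM at 7 h against 437 at 3 h, -0.52), the mannose receptor.

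Lysosomal genes fell in 11 of 22 cases and rose in 4 (median -0.21). Ctsc, which activates granule proteases, rose (2636 ± 32.6 CPM at 7 h and 1026 ± 40.7 CPM at 3 h, log2 fold change 1.36 ± 0.06). The genes of the lysosomal regulators Tfe3 (130.4 CPM at 7 h against 66.04 at 3 h, 0.98) and Tfeb (14.6 CPM at 7 h against 8.097 at 3 h, 0.85) rose too. The proton pump gene Atp6v0d2 fell (57.6 ± 2.21 CPM at 7 h and 179 ± 12.8 CPM at 3 h, log2 fold change -1.64 ± 0.07). Inflammasome and cell death genes rose in 8 of 17 cases and fell in 5 (median 0.17; 3 fell with the ribosomal reference). Casp1, the protease that matures interleukin 1 beta, was at 681, 680.5 and 689 CPM at 7 h, against 162, 180.4 and 214 CPM at 3 h (log2 fold change 1.88 ± 0.10). Gsdmd, the pore-forming gasdermin, was at 220.3 ± 6.06 CPM at 7 h and 101 ± 3.83 CPM at 3 h (log2 fold change 1.13 ± 0.06). Mlkl, the executioner of necroptosis, was at 80.9 CPM at 7 h against 33.7 at 3 h (1.26), and Naip2, a sensor of bacterial proteins, at 79.9 CPM at 7 h against 36.4 at 3 h (1.14). The sensor gene Nlrp3 was slightly lower (222 ± 1.69 CPM at 7 h and 269.7 ± 19.2 CPM at 3 h, -0.28), and Pycard, the adaptor, did not pass (235 ± 5.78 CPM at 7 h and 236 ± 17.98 CPM at 3 h). In the BCL-2 family 4 of 15 rose and 5 fell (median -0.14). Bcl2l11, encoding the death-promoting protein BIM, was at 30.1, 28.8 and 29.9 CPM at 7 h, against 172, 167 and 143 CPM at 3 h (log2 fold change -2.44 ± 0.08). The 3 tested Bcl2a1 genes are near-identical copies, and their values are uncertain.

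Metabolic genes of hypoxia and glycolysis were mostly higher at 7 h. Of 16 genes of the HIF-1 response 13 rose and 1 fell (median 0.89). Egln3, a prolyl hydroxylase that marks HIF alpha subunits for degradation and is itself a HIF target, was at 44.2, 47.3 and 48.4 CPM at 7 h, against 3.505, 3.78 and 3.58 CPM at 3 h (log2 fold change 3.69 ± 0.16, edgeR adjusted p = 9.98e-23). Ankrd37, another HIF target, was at 21.4, 24.4 and 26.4 CPM at 7 h, against 3.43, 2.68 and 4.63 CPM at 3 h (log2 fold change 2.74 ± 0.18). The mitophagy receptor gene Bnip3 rose (35.4 ± 1.798 CPM at 7 h and 6.64 ± 0.399 CPM at 3 h, log2 fold change 2.42 ± 0.20). So did Ndrg1 (428 ± 12.6 CPM at 7 h and 85.2 ± 5.38 CPM at 3 h, log2 fold change 2.33 ± 0.09). Hif1a itself rose less (479.8 ± 12.8 CPM at 7 h and 265 ± 5.73 CPM at 3 h, log2 fold change 0.86 ± 0.07). Ddit4, an mTORC1 inhibitor that HIF can also induce, was the member that fell (10.2 ± 1.56 CPM at 7 h and 20.4 ± 0.897 CPM at 3 h, log2 fold change -1.003 ± 0.12).

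Glycolytic enzymes and transporters rose in 17 of 21 cases and fell in 3 (median 0.76). Slc16a3, the lactate exporter MCT4, was at 792, 809.9 and 807 CPM at 7 h, against 188, 179.9 and 158 CPM at 3 h (log2 fold change 2.20 ± 0.08). Slc2a1, the glucose transporter GLUT1, was at 664, 665 and 684 CPM at 7 h, against 163, 169 and 158 CPM at 3 h (log2 fold change 2.04 ± 0.08), with both genes far apart between times. The liver-type phosphofructokinase gene Pfkl was at 256 ± 10.5 CPM at 7 h and 63.3 ± 4.14 CPM at 3 h (log2 fold change 2.02 ± 0.07). The transporter gene Slc16a1 was at 122 ± 7.62 CPM at 7 h and 30.3 ± 0.992 CPM at 3 h (log2 fold change 2.02 ± 0.08). Lactate dehydrogenase Ldha was at 1322 ± 12.6 CPM at 7 h and 704 ± 30.8 CPM at 3 h (log2 fold change 0.91 ± 0.06). Slc2a3, another glucose transporter gene, fell at a low level (3.57 ± 0.602 CPM at 7 h and 8.78 ± 0.681 CPM at 3 h, log2 fold change -1.30 ± 0.15), and so did the muscle-type gene Pfkm (2.93 CPM at 7 h against 5.77 at 3 h). Gapdh held only 1 to 3 counts per library at 7 h and 1 to 4 at 3 h and was not tested, and Pgam1 had at most 112 counts. Both have many processed copies in the genome, so these counts were not read as levels.

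Upstream regions of 3 of these genes are shown because they hold the core of the hypoxia response element, ACGTG (either strand; these letters also occur within the E-box CACGTG). The core was in 9 of 14 windows of the HIF list (64.3%) and 11 of 20 of the glycolysis list (55%), against 19.7% of all windows and 26.1% of those of genes tested. Among genes that rose at least 2-fold it was in 27.8%, and among those that fell in 20.3%. The 3 regions are from RefSeq (GRCm38.p6): Egln3 at chr12:54203875-54204124, minus strand, with the core 229 bases before the start site; Ankrd37 at chr8:45999851-46000100, minus strand, at 241 and 6 bases; and Slc16a3 at chr11:120948817-120949066, plus strand, at 27 and 14 bases. The capitals mark the core on either strand.
Egln3: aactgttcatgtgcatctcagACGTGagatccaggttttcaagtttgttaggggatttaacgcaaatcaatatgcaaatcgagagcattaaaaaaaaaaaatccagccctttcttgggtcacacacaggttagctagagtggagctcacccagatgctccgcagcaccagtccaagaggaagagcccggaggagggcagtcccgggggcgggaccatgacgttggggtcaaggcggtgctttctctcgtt
Ankrd37: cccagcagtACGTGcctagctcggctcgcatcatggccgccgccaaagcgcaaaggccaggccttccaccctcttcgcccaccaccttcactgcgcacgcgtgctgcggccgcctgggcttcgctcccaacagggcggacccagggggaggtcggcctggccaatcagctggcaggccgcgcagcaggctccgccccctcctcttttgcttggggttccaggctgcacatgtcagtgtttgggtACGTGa
Slc16a3: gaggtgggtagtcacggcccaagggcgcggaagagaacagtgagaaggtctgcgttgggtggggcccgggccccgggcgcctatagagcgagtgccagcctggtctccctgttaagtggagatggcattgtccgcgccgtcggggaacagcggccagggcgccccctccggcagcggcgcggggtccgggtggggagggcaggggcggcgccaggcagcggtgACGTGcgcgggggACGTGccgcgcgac

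Cholesterol synthesis and uptake genes rose in 18 of 23 cases and fell in 3 (median 0.81). Lss, lanosterol synthase, was at 49.3, 48.98 and 44.4 CPM at 7 h, against 13.4, 14.4 and 11.6 CPM at 3 h (log2 fold change 1.86 ± 0.09). Sqle, squalene epoxidase, was at 147.5 ± 5.89 CPM at 7 h and 47.01 ± 2.65 CPM at 3 h (log2 fold change 1.65 ± 0.07). Hsd17b7 was at 57.3 ± 4.02 CPM at 7 h and 19.6 ± 1.96 CPM at 3 h (log2 fold change 1.55 ± 0.10). Insig1, which encodes a sterol sensor partner, did not pass (118 ± 1.84 CPM at 7 h and 116 ± 9.11 CPM at 3 h). Dhcr7, the last enzyme of one branch, fell (11.4 CPM at 7 h against 17.5 at 3 h, -0.62). The letters CCAAT (either strand), bound by NF-Y, were in 15 of 16 windows of this list (93.8%), against 37.9% of all windows and 38.9% of those of genes tested. They were about as frequent in 2 lists that mostly fell, mitosis (88.2%) and the unfolded protein response (85.7%). Their share was 37.1% among genes that rose at least 2-fold and 39.4% among those that fell. A sterol element pattern, also searched, was in 0 of 16 windows of this list, 0.0851% of all windows and 0.0104% of those of genes tested. For a pattern this rare, its absence from 16 windows says nothing about the list. Lss is shown, on the plus strand at chr10:76531355-76531604 (RefSeq, GRCm38.p6), with the match, here on the opposite strand, in capitals 62 bases before the start site.
Lss: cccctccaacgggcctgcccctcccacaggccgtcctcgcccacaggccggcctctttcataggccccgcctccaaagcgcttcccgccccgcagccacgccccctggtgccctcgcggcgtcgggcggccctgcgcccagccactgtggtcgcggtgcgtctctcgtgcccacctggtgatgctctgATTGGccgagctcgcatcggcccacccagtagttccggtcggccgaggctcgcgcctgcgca

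Cholesterol efflux and LXR target genes rose in 6 of 12 cases and fell in 4 (median 0.25). Scd2, a fatty acid desaturase, rose (79.3 ± 4.27 CPM at 7 h and 25.7 ± 4.65 CPM at 3 h, log2 fold change 1.63 ± 0.26). The exporter gene Abcg1 fell (28.9 ± 3.35 CPM at 7 h and 71.99 ± 4.66 CPM at 3 h, log2 fold change -1.32 ± 0.09). So did the trafficking GTPase gene Arl4c (5.19 ± 0.278 CPM at 7 h and 38.4 ± 4.96 CPM at 3 h, log2 fold change -2.89 ± 0.11) and Ch25h, which makes 25-hydroxycholesterol (23.1 CPM at 7 h against 92.9 at 3 h, -2.01). In the oxidant response governed by NRF2 7 of 15 rose and 5 fell (median 0.13). Hmox1, haem oxygenase 1, was at 1679, 1701 and 1742 CPM at 7 h, against 275, 272 and 269 CPM at 3 h (log2 fold change 2.65 ± 0.07). The cystine transporter gene Slc7a11 was at 84.1 ± 9.55 CPM at 7 h and 37.2 ± 4.59 CPM at 3 h (log2 fold change 1.18 ± 0.09). Gclm, a subunit of the enzyme that starts glutathione synthesis, was at 74.7 CPM at 7 h against 36.3 at 3 h (1.04). Its catalytic partner gene Gclc fell (16.3 CPM at 7 h against 25.8 at 3 h, -0.66).

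ATF4 and amino acid response genes rose in 13 of 24 cases and fell in 2 (median 0.19; none fell with the ribosomal reference), and none changed 2-fold. Sesn2, a leucine-sensing inhibitor of mTORC1, was at 14.03 ± 0.456 CPM at 7 h and 7.24 ± 1.198 CPM at 3 h (log2 fold change 0.96 ± 0.15). Asns, asparagine synthetase, was at 78.4 ± 4.94 CPM at 7 h and 51.04 ± 6.35 CPM at 3 h (log2 fold change 0.62 ± 0.09). No gene of the unfolded protein response rose and 10 of 16 fell (median -0.20; 4 fell with the ribosomal reference). Hspa5, the chaperone BiP, was at 1478 ± 15.1 CPM at 7 h and 1978 ± 177 CPM at 3 h (log2 fold change -0.42 ± 0.07), and Sdf2l1 at 60.4 CPM at 7 h against 103 at 3 h (-0.77). Of 25 respiratory chain genes 8 fell and 1 rose, which became 3 and 4 with the ribosomal reference (median -0.08, lowest Ndufb8 at -0.35). Ribosome biogenesis genes fell in 10 of 24 cases and rose in 4 (median -0.15), with Rrs1 at 20.4 CPM at 7 h against 38.3 at 3 h (-0.91). Of 41 ribosomal protein and elongation factor genes 4 fell and none rose (median -0.13; 2 and 2 when they served as the reference themselves), and their changes ran from -0.39 to 0.455. Many of these genes have near-identical copies in the genome, so their counts, and the scaling that rests on them, are uncertain.

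Cell cycle genes were lower at 7 h. Of 23 S phase and replication genes 18 fell, 14 of them at least 2-fold, and 1 rose (median -1.32). The helicase subunit gene Mcm2 was at 4.402, 4.96 and 4.95 CPM at 7 h, against 27.8, 22.6 and 20.2 CPM at 3 h (log2 fold change -2.30 ± 0.12). Rrm2, of ribonucleotide reductase, was at 5.66, 5.68 and 5.83 CPM at 7 h, against 29.1, 23.2 and 28.8 CPM at 3 h (log2 fold change -2.24 ± 0.09). No 7 h library reached a 3 h library in either gene. The polymerase gene Pola1 fell (3.64 CPM at 7 h against 17.5 at 3 h, -2.27), as did Ung, encoding uracil-DNA glycosylase (0.423 CPM at 7 h against 2.31 at 3 h, -2.42). Cdt1, which licenses replication origins, was the member that rose (14.1 ± 0.263 CPM at 7 h and 5.86 ± 0.561 CPM at 3 h, log2 fold change 1.27 ± 0.15). Of 22 mitosis genes 19 fell and none rose (median -0.67). Mki67, the Ki-67 proliferation marker, was at 5.89, 6.88 and 6.07 CPM at 7 h, against 16.6, 21.8 and 19.9 CPM at 3 h (log2 fold change -1.63 ± 0.16). The kinase gene Pbk was at 3.43 ± 0.7196 CPM at 7 h and 12.9 ± 0.867 CPM at 3 h (log2 fold change -1.91 ± 0.13). The spindle motor gene Kif11 was at 4.81 ± 0.527 CPM at 7 h and 13.3 ± 0.078 CPM at 3 h (log2 fold change -1.47 ± 0.13). Genes that brake the cycle were also mostly lower: 11 of 18 fell and 3 rose (median -0.41). Cdkn1a, encoding the inhibitor p21, was at 486, 477 and 482 CPM at 7 h, against 1488, 1439 and 1253 CPM at 3 h (log2 fold change -1.53 ± 0.09). Gadd45g was at 2.16 ± 0.692 CPM at 7 h and 7.12 ± 0.645 CPM at 3 h (log2 fold change -1.71 ± 0.17). Cdkn1b, encoding p27, rose (41.2 ± 0.378 CPM at 7 h and 24.2 ± 1.28 CPM at 3 h, log2 fold change 0.77 ± 0.11). Whether fewer cells cycled or cycling cells held less of these transcripts cannot be told apart.

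Cdk1, the kinase that drives entry into mitosis (31.6 ± 1.04 CPM at 7 h and 67.5 ± 0.877 CPM at 3 h, log2 fold change -1.09 ± 0.09), has the cell cycle homology region TTTGAA upstream. These letters (either strand) were in 12 of 17 windows of the mitosis list (70.6%) and 5.56% of those of the S phase list. They were in 18.1% of all windows and 12.2% of those of genes tested. Their share was 12.7% among genes that rose at least 2-fold and 13.1% among those that fell at least 2-fold. The region lies on the minus strand at chr10:69352913-69353162 (RefSeq, GRCm38.p6), with matches in capitals at 71 and 15 bases before the start site.
Cdk1: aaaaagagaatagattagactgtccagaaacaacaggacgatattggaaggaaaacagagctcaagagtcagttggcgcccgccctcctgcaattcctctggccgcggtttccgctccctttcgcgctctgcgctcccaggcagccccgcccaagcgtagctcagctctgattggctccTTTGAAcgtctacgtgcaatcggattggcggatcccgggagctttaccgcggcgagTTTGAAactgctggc

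**Figure D4:**
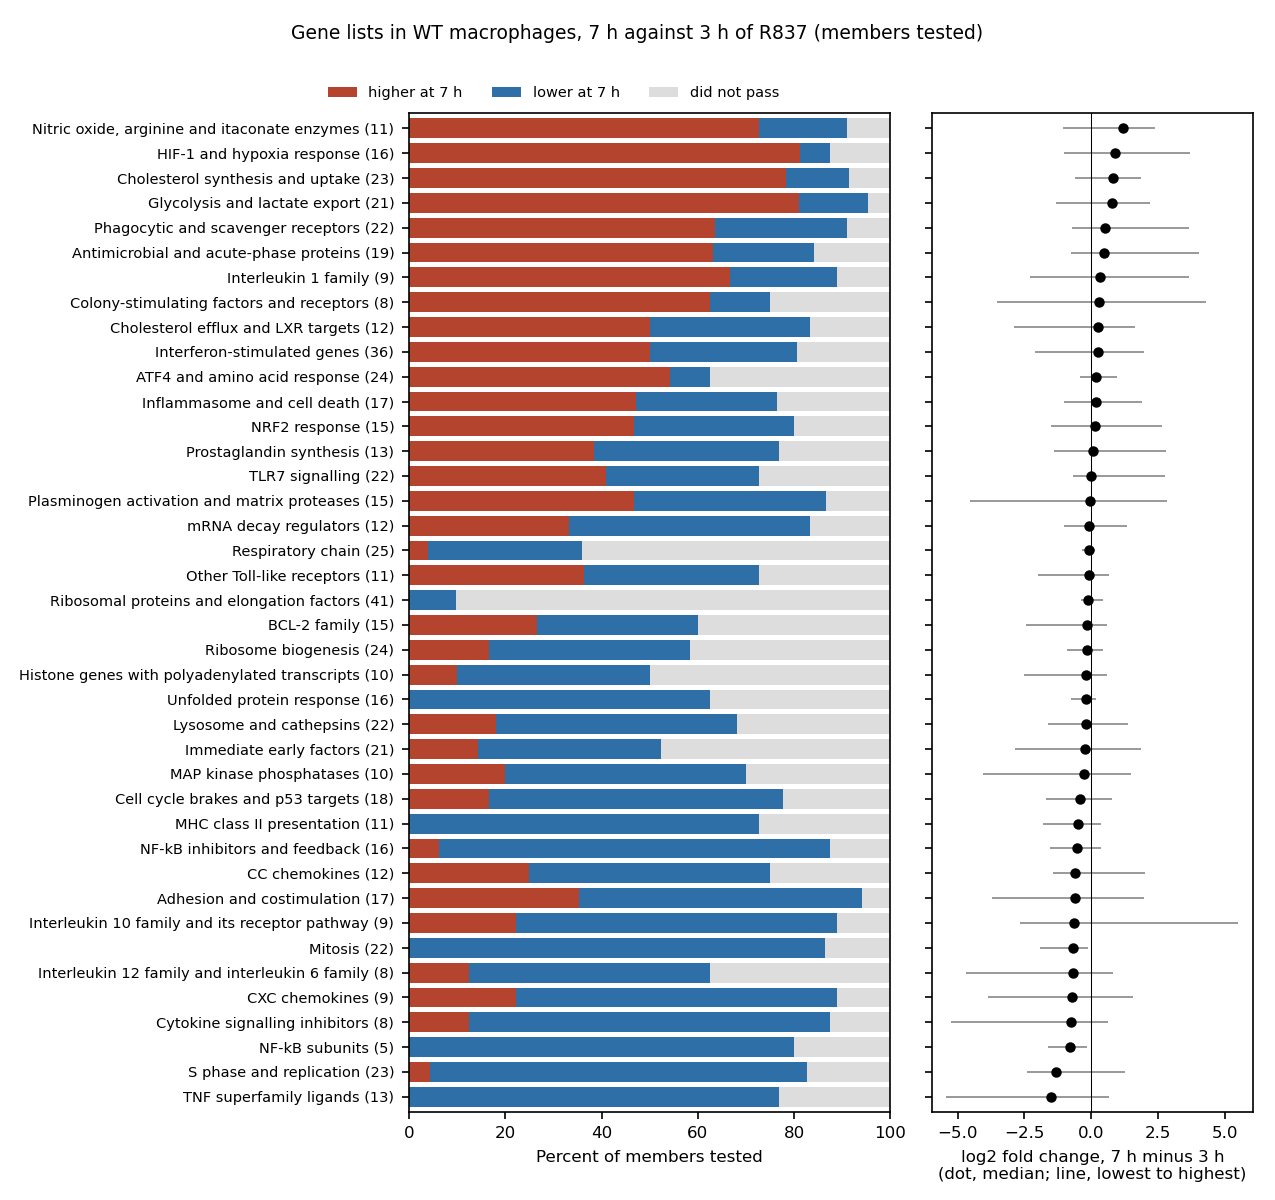
For 40 gene lists (number of members tested in brackets), the left panel gives the percent of members higher at 7 h (red), lower at 7 h (blue) and not passing (grey), and the right panel the median log2 fold change of 7 h minus 3 h (dot) with the lowest and highest member (line), sorted by the median. Nitric oxide, HIF-1, cholesterol synthesis and glycolysis lists stand at the top with medians from 1.18 to 0.76, and S phase genes and TNF superfamily ligands at the bottom with -1.32 and -1.49.

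The WT libraries with ActD give another view. The labels name 3 h of R837 and 4 h of ActD without stating their order; if ActD followed the 3 h of R837, those cells were collected as long after the start as the 7 h cells. The genes below were chosen on their 7 h values, so the counts are a description with no test, and ActD CPM are shares of a changing RNA pool. Of the 1547 genes that fell at least 2-fold, 1289 (83.3%) had a lower mean at 7 h without ActD than with 4 h of ActD, 934 of them (60.4%) at least 2-fold lower. Over all genes tested these shares were 50.8% and 13.3%. Of the 942 genes that rose at least 2-fold, 619 (65.7%) were at least 2-fold higher at 7 h without ActD than with 4 h of ActD, against 25.1% of all genes tested.

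Individual genes showed both patterns. Cxcl10 was at 156, 159 and 162 CPM at 7 h, against 2983, 2964 and 2579 CPM with 3 h of R837 and 4 h of ActD. Plau was at 12.6, 13.8 and 11.4 CPM at 7 h, against 221, 229 and 232 CPM with ActD, and Icam1 at 793, 768 and 782.5 CPM, against 3052, 3126 and 2901 CPM. In all 3 genes each library with 4 h of ActD lay far above each 7 h library and nearer to the 3 h libraries. Cish and Bcor behaved otherwise. Cish was at 0.615, 0.541 and 0.921 CPM at 7 h, against 0, 0.685 and 0.822 CPM with ActD, and Bcor at 4.11, 3.85 and 3.48 CPM, against 3.46, 3.98 and 4.38 CPM, so that both were as low with ActD as without it. Among the risers, Il19 was at 73.7, 79.1 and 81.4 CPM at 7 h, against 8.19, 7.17 and 8.11 CPM with ActD. Saa3 was at 14480, 16150 and 16010 CPM at 7 h, against 5064, 5690 and 8762 CPM with ActD. Its mean with ActD was thus above its 3 h mean, and below its 7 h mean.

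**Figure D5:**
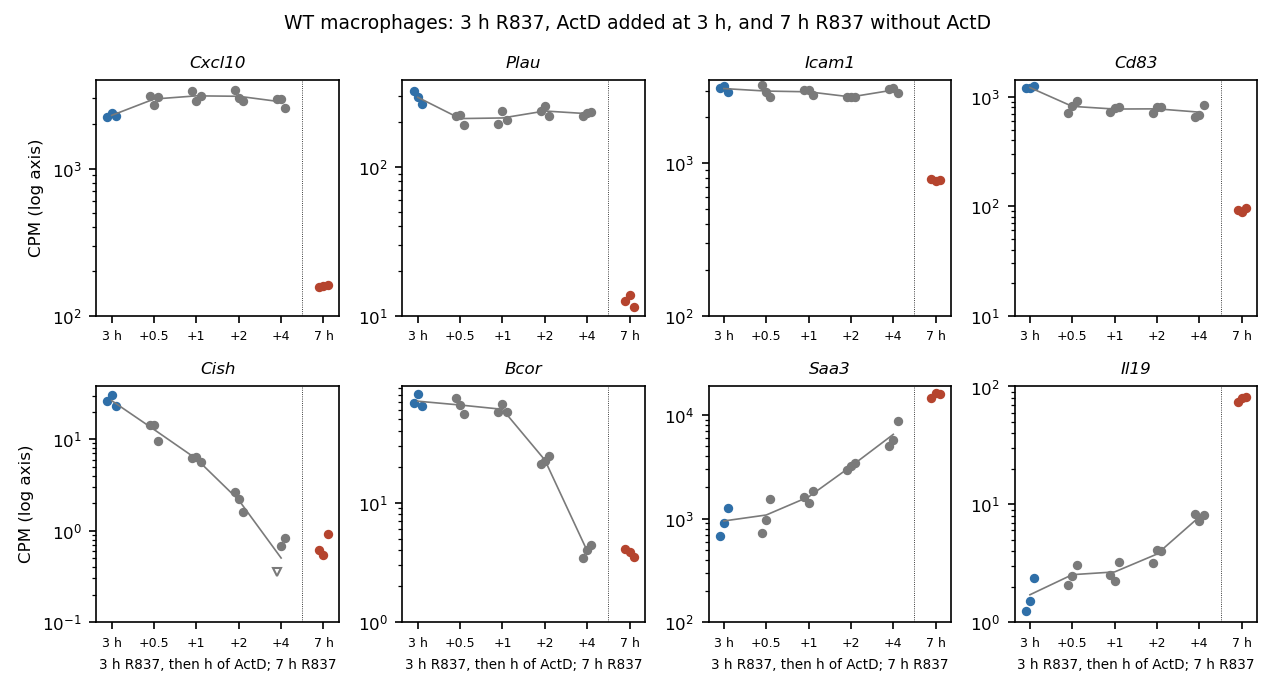
CPM on log axes in each WT library at 3 h of R837 (blue), with 0.5, 1, 2 and 4 h of ActD (grey, line through the means) and at 7 h of R837 without ActD (red), for 8 genes; the open triangle is a Cish library at 0. Cxcl10, Plau, Icam1 and Cd83 are much lower at 7 h than with 4 h of ActD, Cish and Bcor are low in both, and Saa3 and Il19 are highest at 7 h.

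Whether the WT changes differed from those of KO macrophages over the same hours was tested for 19 genes by the interaction in the same model (WT change minus KO change); over all genes tested 1670 (12.1%) passed. In KO macrophages 28.6% of genes tested were higher at 7 h and 31.7% were lower. N4bp1 averaged 143 CPM in KO at 7 h and 84.1 CPM in KO at 3 h and was not absent; the deleted part of the gene is not given in the sources used here, so this checks nothing. Of the 19 genes 12 passed. Il10 fell in WT by 1.64 and had a change of -0.003 in KO, a difference of -1.64 (edgeR adjusted p = 1.17e-12). Csf3 rose in both, less in WT (4.28) than in KO (6.18), with a difference of -1.91 (edgeR adjusted p = 1.19e-10). Plau fell less in WT (-4.53) than in KO (-5.33), by 0.80 (edgeR adjusted p = 1.57e-05). Cxcl10 fell more in WT (-3.86) than in KO (-2.72), as did Cish (-5.26 and -3.96), whereas Eps8 (-4.31 and -5.13) and Mcm6 (-1.80 and -2.22) fell less in WT. Il19 (5.49 and 6.995) and Lcn2 (2.38 and 3.20) rose less in WT, and Lox (4.18 and 3.68) more. Icam1 differed by -0.25 and Nfkbia by -0.28. The calls of Icam1, Nfkbia and Lox were lost when any of several libraries was left out, and that of Mcm6 without WT 3 h replicate 3. For Saa3 (0.14), Ptges (0.02), Phldb1 (0.07), Lss (0.20), Tmc3 (-0.50), Tnfsf4 (-0.30) and Slc16a3 (-0.30, edgeR adjusted p = 0.0626) the difference did not pass, which does not show that the genotypes changed alike.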

How the data were processed

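The 36 libraries were of bone marrow-derived macrophages; total RNA was made into libraries with the Illumina TruSeq RNA kit and read as single-end reads on a HiSeq4000, per the labels' protocols. The authors deposited, for each library, a table of raw read counts over the exons of each gene, with RPKM values and gene widths beside them; the RPKM values of the authors enter no result. GSNAP and GRCm38 are named in the submitters' processing notes; the counting program, the annotation and its strand setting are not given in the sources used here. Of 52636 gene identifiers 52489 were named from GENCODE.

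Genes were filtered with filterByExpr and scaled by TMM in edgeR 4.0.16 (R 4.3.3), and a quasi-likelihood model was fitted to all 36 libraries in 12 groups of 3, without covariates. The contrast was WT 7 h minus WT 3 h, with Benjamini-Hochberg adjustment over 13748 genes at 0.05; the WT minus KO interaction came from the same fit. The p-values rest on the spread between libraries within a group, labelled as 3 individual mice, pooled over the 12 groups. They treat all libraries as independent, although groups may share mice. The depth of 25245359 to 32494987 counts per WT library limits what can be said of genes below about 1 CPM. The steps were tested on simulated counts in which far fewer genes changed than in the data. That simulation does not test the scaling where most genes differ.

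Named genes were the 15 largest rises and falls by log2 fold change (mean of at least 5 CPM, libraries apart) and the 10 largest gains and losses in CPM (at least 2-fold), both without predicted genes and pseudogenes, up to 4 members of each list with the largest change, and 12 cytokine, receptor and target genes; other list members named were chosen after their values were seen. Some list members are counted in their lists but not reported singly here. The members and the lists were chosen with earlier results of these data known. Promoters were from RefSeq (GRCm38.p6). Alternatives were RLE, upper-quartile and ribosomal-reference scaling, DESeq2 1.42.0, other filters, the fit of only the libraries compared, removal of the length trend, a threshold of 0.01, and each library compared left out in turn (the 6 of WT, and for the interaction also the 6 of KO).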

Additional observations from a re-analysis of the deposited data

Results flagged for a closer look

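For 12 of 19 genes the change between 7 h and 3 h differed between WT and KO macrophages in the interaction test (edgeR quasi-likelihood, adjusted over all genes tested, of which 12.1% passed). The WT change minus the KO change was -1.64 for Il10, -1.50 for Il19, -1.91 for Csf3, -0.82 for Lcn2, -1.30 for Cish, -1.135 for Cxcl10, -0.25 for Icam1 and -0.28 for Nfkbia. It was 0.80 for Plau, 0.82 for Eps8, 0.50 for Lox and 0.42 for Mcm6. Il10 averaged 93.3 CPM at 7 h and 291.5 CPM at 3 h in WT, and 245 CPM at 7 h and 246 CPM at 3 h in KO. The interaction of Icam1 (edgeR adjusted p = 0.041), Lox (edgeR adjusted p = 0.0311) and Nfkbia (edgeR adjusted p = 0.0279) lay close to the threshold. With ribosomal protein genes as the scaling reference, the WT change minus KO change of Icam1 was -0.049 and the WT change minus KO change of Nfkbia was -0.0792, and neither passed. The WT change minus KO change of Slc16a3 did not pass with all libraries and did without WT 3 h replicate 3 (-0.368, edgeR adjusted p = 0.0241). All 19 genes were picked with results known.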

How the results depend on the processing

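The number of genes that passed, 7973 of 13748, stayed between 6698 (threshold 0.01) and 8356 (only the libraries compared) under every alternative run; leaving out each of the 6 WT libraries compared gave 7432 to 7534, and DESeq2 7974. The number changed at least 2-fold, 2489, ran from 2086 to 2578. Of the calls, 1 changed sign when the trend with gene length was removed, and none under the other settings. The share of calls higher at 7 h, 47.0%, was 51.5% with RLE, 51.4% with DESeq2, 55.65% with the length trend removed and 56.6% with the ribosomal reference. Among named genes, 36 gene-by-setting values lost their call, 1 gained one and 1 changed direction, that of Il12b, whose change lay between -0.357 (without WT 3 h replicate 1) and 0.0341 (without WT 3 h replicate 3) as libraries were left out, against 3214 that held. For the interaction these numbers were 35, 3 and 6 against 355, and the sign changes were of genes that did not pass. With the length trend removed the interaction was -0.047 for Ptges and -0.0285 for Phldb1. With each of the 12 WT and KO libraries of that contrast left out in turn it ranged from -0.0102 to 0.0436 for Ptges, from -0.0148 to 0.208 for Phldb1 and from -0.0492 to 0.408 for Saa3. The cause was not tested. No paired analysis was possible because the labels carry no replicate numbers. Genes with few counts or with near-identical copies are the least certain.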
